A study of Mus musculus with 19 samples.

Results

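Molecular motors carry cargo along microtubules, and the genes of the kinesins, of cytoplasmic dynein and of dynactin were followed here in the cholinergic neurons of the mouse spinal cord. Members were chosen by gene symbol alone: every kinesin (Kif, Kifap3, Kifc), kinesin light chain (Klc), cytoplasmic dynein-1 or dynein-2 chain (Dync1, Dync2), dynein light chain (Dynll, Dynlrb, Dynlt) and dynactin subunit (Dctn), with the dynein regulators Pafah1b1 (LIS1), Nde1 and Ndel1. Of the 50559 genes listed, 78 matched these names, and 74 were kept after 4 pseudogene rows were left out. Of the 74 members 63 passed the filter on low counts. The other 11 were Kif12, Kif14, Kif15, Kif16bos (an RNA from the strand opposite to Kif16b), Kif18a, Kif18b, Kif19b, Kif20b, Kif23, Kif2b and Kif2c. Among these, Kif12, Kif16bos and Kif2b had no count in any library.

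Tissue came from 10-wk-old male C57BL/6J mice of the genotype ChAT-Cre;RiboTag fx/+, labelled wild-type and kept on 12 h of light and 12 h of dark. In these animals Cre, made in cells that express choline acetyltransferase, switches on a hemagglutinin-tagged ribosomal protein, and the tag is precipitated from the homogenate together with the mRNA on the ribosomes of these neurons. The promoter marks every cholinergic neuron of the cord, of which lower motor neurons are 1 class. Spinal cords were taken at Zeitgeber time (ZT, h after lights on) 0, 4, 8, 12, 16 and 20, with 3 biological replicates each, which gave 18 immunoprecipitates. A single further library held pooled input, the RNA of the homogenate before precipitation.

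The immunoprecipitates held 6302150 to 22406844 counts (median 15014112) and the input 15239792, and animals sampled together varied by 19.2% (the coefficient of variation shared by all genes). As for the labelled cell type, 6 of 7 cholinergic neuron genes were at least 2-fold above the input on average and above it in all immunoprecipitates. The exception was Chat, the choline acetyltransferase gene, which was not above the input in every immunoprecipitate and ran from 8.31 to 84.9 CPM. All 7 oligodendrocyte, 6 astrocyte and 6 microglia genes were at least 2-fold below the input on average. Oligodendrocyte RNA was still present, with a summed level of its 7 markers between 1515 and 2887 CPM (read counts scaled to a common library size) in the immunoprecipitates. Libraries of 1 time point also stood apart from each other. Most of the calls given below are lost without replicate 2 of ZT8, whereas leaving out replicate 1 of ZT8 gave more calls.

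Kinesins mostly walk toward the plus end of the microtubule, which in an axon points away from the cell body. Kinesin-1, built from heavy chains (Kif5) that walk and light chains (Klc) that bind cargo, carries mitochondria, vesicles and neurofilaments outward. Cytoplasmic dynein-1 walks back toward the cell body, with dynactin joining it to cargo and LIS1, Nde1 and Ndel1 regulating it. Motor neurons have some of the longest axons of the body, and mutations in KIF5A, DCTN1 and DYNC1H1 are known causes of motor neuron disease in people.

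Motor transcripts made up 1.72% to 2.01% of the counts of an immunoprecipitate (median, 1.79%) and 1.21% of the input. Divided by transcript length, the level was highest for Klc1 at 1456 CPM per kb, followed by the dynein light chains Dynll2 (689.5 CPM per kb) and Dynlrb1 (358 CPM per kb). Next on this scale came Klc2 (256 CPM per kb), the heavy chain Kif5c (230.3 CPM per kb) and the dynactin subunits Dctn2, Dctn3 and Dctn1 (223, 203 and 199 CPM per kb). Kif5a, a neuronal heavy chain, stood at 139 CPM per kb, close to Kif1a, the kinesin-3 that carries synaptic vesicle precursors (132 CPM per kb), whereas the widely expressed Kif5b stood at 31.0 CPM per kb. Lengths were those of the longest coding transcript of each gene, so the order of genes with several isoforms is approximate.

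Levels on the tagged ribosomes were set against those of the input. The input is RNA of the homogenate, on ribosomes or not. A ratio therefore joins the level of an mRNA in these cells with its loading on ribosomes, which cannot be told apart. Of the 70 members with at least 10 counts, 14 (20%) were enriched, with a ratio of mean CPM of at least 2 and all 18 libraries above the input, against 11.6% of the 21169 genes compared. Another 14 (20%) were depleted by the mirrored rule, against 21.1% of genes. The median log2 ratio of the members was -0.07 and that of all genes -0.27. Scaled by library totals alone, the median of all genes was -0.59 and fewer members were enriched. There was 1 input library, so that no test could be made, and the intervals given for it cover counting error only. CPM values in this comparison were scaled over all 19 libraries, those of the time course over the 18 immunoprecipitates.

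Klc1 stood highest of the 44 members that had 100 or more input counts, at 3684 ± 493 CPM (SD, n = 18) where the input had 635 CPM (exact 95% Poisson interval from 624 to 646), for a log2 ratio of 2.54. Dync1h1, the heavy chain that gives dynein its motor force, was at 1378 ± 128 CPM (SD, n = 18) where the input had 385 CPM (exact 95% Poisson interval from 376 to 394), for a log2 ratio of 1.84. Dctn3 and Dctn1, a shoulder subunit and the large p150Glued subunit of dynactin, had log2 ratios of 1.68 and 1.45, and the neuronal intermediate chain Dync1i1 a log2 ratio of 1.61. Of the 6 dynactin genes 5 were enriched, and Dctn4 was near the input (log2 ratio, -0.08). Of the 3 kinesin-1 heavy chains only Kif5c was enriched (log2 ratio, 1.37), with Kif5a at -0.35 and Kif5b at -0.97 on the same scale. Kif5a ran from 626 to 1139 CPM on the tagged ribosomes and was at 1127 CPM in the cord as a whole.

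Nde1, a partner of LIS1 best known from dividing progenitors, was lowest, at 3.47 ± 0.659 CPM (SD, n = 18) where the input had 47.0 CPM (exact 95% Poisson interval from 43.9 to 50.2), for a log2 ratio of -3.76. Its close relative Ndel1, which neurons use after division, lay near the input (log2 ratio, 0.34). Kif13b, Kif1c and Kif13a, 3 of the 7 kinesin-3 genes, were depleted, with log2 ratios of -2.56, -1.94 and -1.60, whereas Kif1a and Kif1b stood at 0.55 and 0.42. Kif19a, which trims the tips of motile cilia, had a log2 ratio of -2.21. Of 6 ependymal cell markers 4 were depleted as well, with a list median of -2.39 and a range from -4.30 to 0.45. Those 4 (Ccdc153, Tmem212, Dnah11 and Mia) had only 20 to 49 input counts and averaged 0.07 to 0.53 CPM in the immunoprecipitates. Foxj1, by far the highest of the list (51.8 CPM on average), and Rsph1 were not depleted. Kif22 was the 1 mitotic kinesin of 11 compared that was enriched, from only 28 counts in the input (log2 ratio, 1.95).

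**Figure D1:**
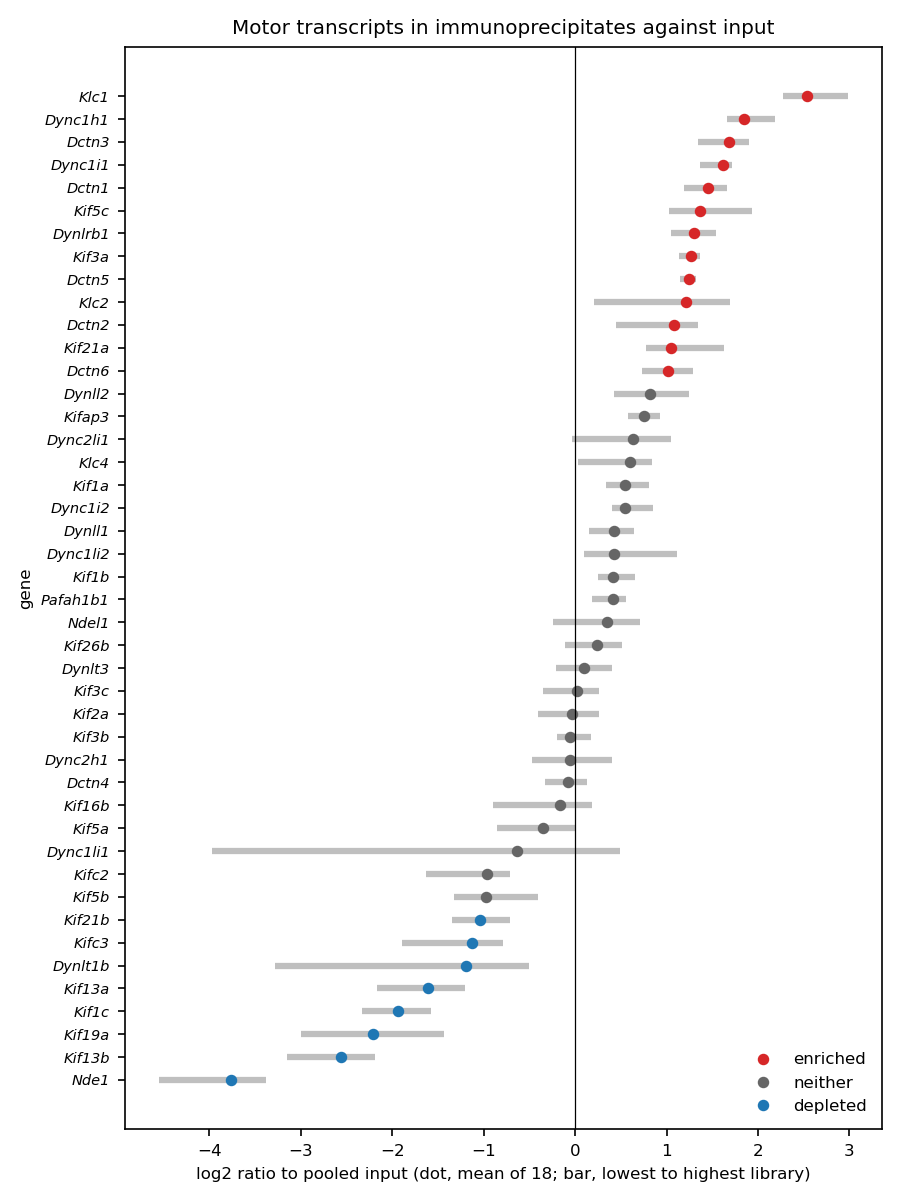
Log2 ratio of mean CPM in 18 immunoprecipitates to CPM in the pooled input for the 44 motor genes that had 100 or more input counts, ordered by ratio. Dots give the mean, bars run from the lowest to the highest library, and the bars of Klc1, Dync1h1 and 5 of 6 dynactin genes lie wholly to the right of 0 while those of Nde1, Kif13b and Kif1c lie wholly to the left.

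Time-of-day differences were then sought among the 18 immunoprecipitates, beginning with the light phase. ZT0 with ZT8 was taken because it had the most differences in earlier results of these data. ZT8 with ZT16 had the most of the pairs across light and dark. Their calls and adjusted p-values are therefore not those of pairs set in advance. A gene is said to change where its adjusted p (quasi-likelihood test of edgeR, Benjamini-Hochberg across all genes tested) was below 0.05. Between ZT0 and ZT8, 14 of the 63 members tested changed (22.2%), against 18% of the 15572 genes tested. Of these, 8 were higher at ZT8 (12.7%, against 8.95% of genes): Klc1, Kif5b, Kif5c, Dynll2, Dync1li2, Dync1h1, Kif21a and Kif22. The other 6 were lower (9.52%, against 9.02% of genes): Kif5a, Klc2, Dync1li1, Dync2li1, Dctn2 and Ndel1. Between ZT8 and ZT16, which is in the dark phase, 12 members changed (19%, against 16.9% of genes). Then 5 were higher at ZT16 (7.94%, against 9.11%), namely Kif5a, Klc2, Dync1li1, Dctn2 and Ndel1, and 7 were lower (11.1%, against 7.8%), namely Klc1, Kif5b, Kif5c, Dynll2, Dync1li2, Kif21a and Kif19a.

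Both comparisons use the same 3 ZT8 libraries, so the 11 genes called in both are not found independently. The median log2 change of the members was -0.04 from ZT0 to ZT8 and 0.05 from ZT8 to ZT16, and the median size of the change was 0.31 and 0.22, against 0.33 and 0.33 for all genes. In all 11 genes, ZT8 replicate 2 was the library of its time point farthest from ZT0 and ZT16, and ZT8 replicate 1 the nearest. Without ZT8 replicate 2 there were 1 call (Dynll2, from ZT0 to ZT8, with 1.72% of all genes) and 0 (0.545%), and without ZT8 replicate 3 there were 4 (6.99%) and 4 (5.84%). Without ZT8 replicate 1 there were 18 (24.9%) and 20 (24.1%). Leaving out ZT0 replicate 1 or 3 left 3 (3.99%) or 6 calls (7.05%) from ZT0 to ZT8, and leaving out ZT16 replicate 1 or 2 left 3 (5.53%) or 0 (0.45%) from ZT8 to ZT16. The calls over all genes moved the same way.

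The 3 kinesin-1 heavy chains all changed, and not in the same direction. Kif5a was at 963, 883 and 967 CPM in the 3 libraries of ZT0, 809, 842 and 803 CPM in those of ZT4 and 808, 623 and 663 CPM in those of ZT8. From lights off it stood at 800.4, 977 and 1017 CPM (ZT12), 968, 1113 and 859 CPM (ZT16) and 954, 924 and 812 CPM (ZT20). All ZT8 values lay below all ZT0 and all ZT16 values. The log2 change was -0.43 ± 0.11 (SE, adjusted p = 0.0155) from ZT0 to ZT8 and 0.49 ± 0.11 (SE, adjusted p = 0.00922) from ZT8 to ZT16.

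Kif5c, the heavy chain enriched over the input, moved the other way. Its level was 1238, 1451 and 1413 CPM at ZT0, 1758, 1788 and 1626 at ZT4, then 1589.7, 2360.2 and 1887 at ZT8. It was 1555, 1675 and 1312 CPM at ZT12, 1374, 1302 and 1573 at ZT16, then 1385, 1514 and 1623 at ZT20. Replicate 2 of ZT8 was the highest of the 18, and the ZT8 values lay above all those of ZT0 and ZT16. Kif5c changed by 0.51 ± 0.12 (SE, adjusted p = 0.0102) on the log2 scale from ZT0 to ZT8 and by -0.46 ± 0.12 (SE, adjusted p = 0.0169) from ZT8 to ZT16. Kif5b, the heavy chain of most cell types, followed Kif5c at a lower level, with 146, 174 and 174 CPM at ZT0, 189, 279 and 213 at ZT8 and 164, 148 and 175 at ZT16. Its log2 change was 0.46 ± 0.15 (SE, adjusted p = 0.0338) to ZT8 and -0.48 ± 0.15 (SE, adjusted p = 0.0291) from there to ZT16. The call to ZT8 was lost with library totals (adjusted p = 0.0554). Without ZT8 replicate 2 the log2 changes were 0.33 and -0.29 for Kif5c and 0.28 and -0.30 for Kif5b, none of which passed.

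Because paralogs are counted in the same library, the share of Kif5a among Kif5a, Kif5b and Kif5c counts does not depend on how libraries are scaled. These shares were picked after the values had been seen and are given without a test. Kif5a made up 41.0%, 35.2% and 37.9% of kinesin-1 heavy chain counts in the ZT0 libraries, 29.1%, 29.1% and 30.8% in those of ZT4 and 31.2%, 19.1% and 24.0% in those of ZT8. From lights off the shares were 31.7%, 34.5% and 40.9% (ZT12), 38.6%, 43.4% and 32.9% (ZT16) and 38.0%, 35.6% and 30.8% (ZT20). The pooled input, which holds RNA of every cell type of the cord, gave 53.2%, above each of the 18 immunoprecipitates. The summed level of the 3 genes was 2469 ± 109 CPM (SD, n = 3 here and below) at ZT0, 2870.3 ± 350.1 CPM at ZT8 and 2558 ± 50.4 CPM at ZT16.

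Light chains showed the same split. Klc1, the member with the highest level, was at 3122, 3459 and 2981 CPM at ZT0, 3550.2, 3899.8 and 4279 at ZT4, then 3870.3, 4979 and 4169 at ZT8. In the dark phase its level was 3952, 3797 and 3296 CPM at ZT12, 3358, 2999 and 3560.4 at ZT16, then 3208, 3572 and 3558 at ZT20. All 3 libraries of ZT8 exceeded those of ZT0 and ZT16. The log2 change of Klc1 was 0.45 ± 0.10 (SE, adjusted p = 0.00888) from ZT0 to ZT8 and -0.39 ± 0.10 (SE, adjusted p = 0.0151) from ZT8 to ZT16. Klc1 shares 4653 bases with Xrcc3 on the opposite strand.

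Klc2, a second light chain of neurons, was at 1096, 869.9 and 856 CPM at ZT0, 639, 498 and 779.9 at ZT4, then 821, 404 and 513 at ZT8. Later in the day it stood at 833, 878 and 989 CPM at ZT12, 1125, 1062 and 719 at ZT16, then 937, 905 and 661 at ZT20. ZT8 lay below ZT0 throughout, but ZT8 replicate 1 was above ZT16 replicate 3. Klc2 changed by -0.70 ± 0.22 (SE, adjusted p = 0.0306) on the log2 scale to ZT8 and by 0.74 ± 0.22 (SE, adjusted p = 0.0242) to ZT16. Without ZT8 replicate 1 the first of these was -1.05. With ZT8 replicate 2 left out the 2 changes were -0.51 and 0.54, and neither passed. As a share of both light chains Klc2 counts were 26.0%, 20.1% and 22.3% at ZT0, 17.5%, 7.51% and 11.0% at ZT8 and 25.1%, 26.2% and 16.8% at ZT16, against 35.7% in the input. Klc3 and Klc4, expressed at 1.84 and 34.3 CPM on average, were not called in any comparison.

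**Figure D2:**
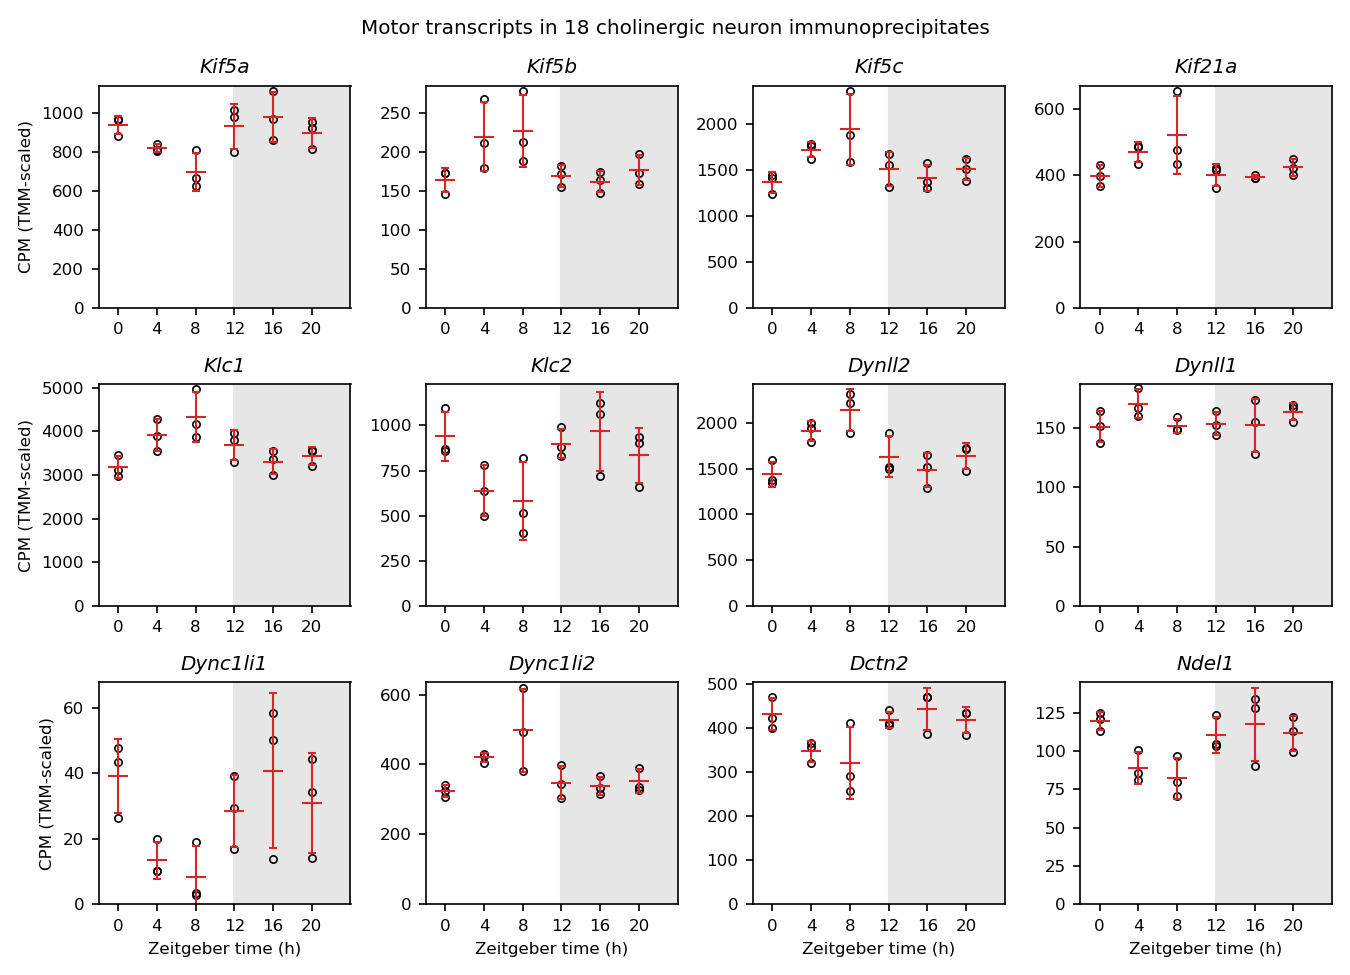
TMM-scaled CPM of 12 motor genes against Zeitgeber time in h, with 1 circle for each of the 3 animals of a time point and red marks for the mean and SD (cut off at 0). Shading marks the dark phase. Kif5a, Klc2, Dync1li1, Dctn2 and Ndel1 have their lowest mean at ZT8, where Kif5b, Kif5c, Kif21a, Klc1, Dynll2 and Dync1li2 have their highest, and Dynll1 stays between 129 and 184 CPM.

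Dynein binds many of its cargo adaptors through its light intermediate chains, and the 2 genes for them also moved apart. Dync1li1 was at 47.7, 26.4 and 43.4 CPM at ZT0, 19.9, 10.1 and 10.2 at ZT4, then 19.1, 2.697 and 3.44 at ZT8. It was at 16.9, 29.3 and 39.1 CPM at ZT12, 50.3, 58.4 and 13.8 at ZT16, then 44.5, 34.2 and 14.2 at ZT20. Replicates 2 and 3 of ZT8 held less than every other library, while ZT8 replicate 1 was above ZT16 replicate 3, so that these groups overlapped. The log2 change was -2.25 ± 0.60 (SE, adjusted p = 0.0152) from ZT0 to ZT8 and 2.31 ± 0.60 (SE, adjusted p = 0.0145) from ZT8 to ZT16, the largest of the called members. Without ZT8 replicate 1 these were -3.70 and 3.75. With ZT8 replicate 2 left out they were -1.82 and 1.88, and neither passed. Its coefficient of variation over the 18 libraries, 63.8%, was also the largest of the 41 members with a mean of at least 10 CPM.

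Dync1li2, the more abundant light intermediate chain, stood at 305, 342 and 324 CPM at ZT0, 426, 430.3 and 405 at ZT4, then 382, 619 and 493 at ZT8. In the dark it was at 398, 345 and 303 CPM at ZT12, 332, 314 and 366 at ZT16, then 337, 328 and 391 at ZT20. Each ZT8 library was above each of ZT0 and ZT16. Dync1li2 changed by 0.62 ± 0.13 (SE, adjusted p = 0.00735) and -0.56 ± 0.13 (SE, adjusted p = 0.0104) on the log2 scale. With ZT8 replicate 2 left out the changes were 0.42 and -0.37 (adjusted p = 0.0671 and 0.0963), and neither passed. Dync1li1 made up 13.5%, 7.15% and 11.8% of the counts of both genes at ZT0, 4.75%, 0.434% and 0.692% at ZT8 and 13.2%, 15.7% and 3.63% at ZT16, against 12.9% in the input.

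The shares of Kif5a, Klc2 and Dync1li1 followed the same libraries. In each of the 3 shares the lowest of the 18 libraries was ZT8 replicate 2, followed by ZT8 replicate 3 and ZT4 replicate 2, and the highest was ZT16 replicate 2, preceded by ZT0 replicate 1. Animals of 1 time point differed as well. The Dync1li1 share was 3.63% in ZT16 replicate 3 and 15.7% in ZT16 replicate 2, for example, and 3.51% in ZT20 replicate 3.

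**Figure D3:**
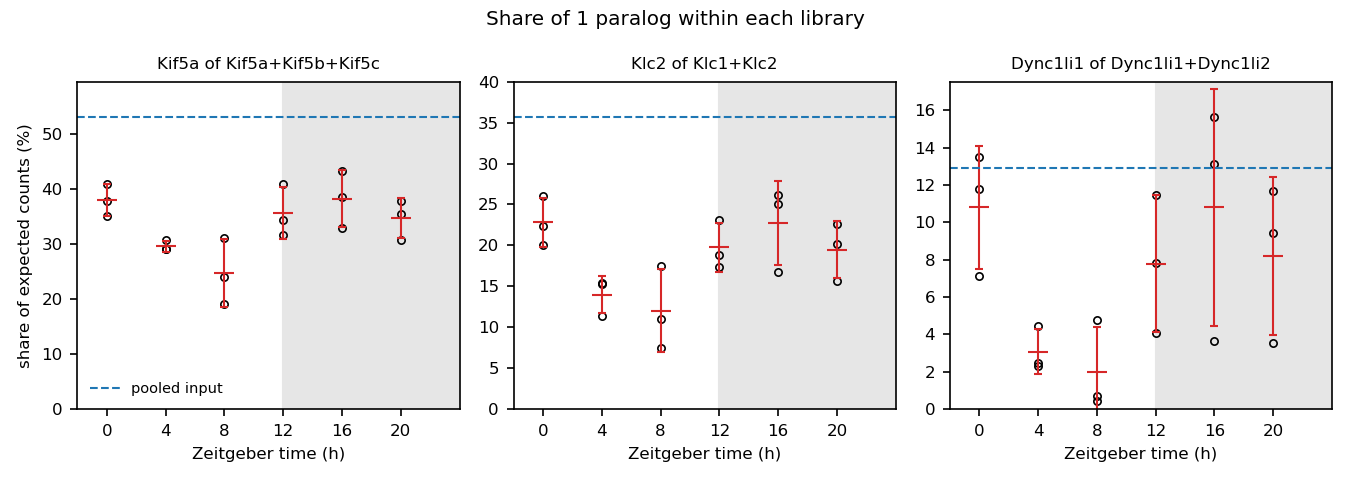
Share of counts (%) that 1 paralog took within each library, against Zeitgeber time in h, for kinesin-1 heavy chains, kinesin light chains and dynein light intermediate chains. Circles are animals, red marks the mean and SD (cut off at 0), the dashed line is the pooled input and shading the dark phase, and means are lowest at ZT8 in all 3 panels (24.8%, 12.0% and 1.96%).

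Of the other dynein chains, Dynll2, Dync1h1 and Dync2li1 changed in at least 1 comparison. Dynll2, one of 2 genes for the LC8 light chain, was at 1370.2, 1596 and 1345 CPM at ZT0, 1886, 2317 and 2220.1 at ZT8 and 1519, 1287 and 1647 at ZT16, with no overlap between ZT8 and the others. The log2 change was 0.58 ± 0.11 (SE, adjusted p = 0.00585) and -0.53 ± 0.11 (SE, adjusted p = 0.00823), the lowest adjusted p of the members in both comparisons. Between these times its level was 1790.4, 2001 and 1948 CPM at ZT4, 1886, 1492 and 1514 at ZT12 and 1478, 1723 and 1713 at ZT20. Dynll1, the other LC8 gene, had means of 151 ± 13.2, 152 ± 5.92 and 153 ± 22.6 CPM at ZT0, ZT8 and ZT16, with log2 changes of 0.01 ± 0.11 (SE, adjusted p = 0.963) and 0.00 ± 0.11 (SE, adjusted p = 0.996). Dynll2 accounted for 90.9%, 90.7% and 89.8% of LC8 counts at ZT0 and 92.7%, 93.6% and 93.7% at ZT8.

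The heavy chain Dync1h1 rose from 1281, 1208 and 1253 CPM at ZT0 to 1308, 1736 and 1527 at ZT8, a log2 change of 0.29 ± 0.10 (SE, adjusted p = 0.0429). This call was lost under 4 of 10 alternative settings, library totals among them, and the change was 0.17 without ZT8 replicate 2. From ZT8 to ZT16 the log2 change of Dync1h1 was -0.19 ± 0.10 (SE, adjusted p = 0.194). The intermediate chains Dync1i1 and Dync1i2, which tie the heavy chain to dynactin, had log2 changes of -0.16 ± 0.09 (SE, adjusted p = 0.216) and 0.14 ± 0.10 (SE, adjusted p = 0.36) from ZT0 to ZT8. Dync2li1, a chain of the dynein-2 motor of cilia, was at 16.3, 14.7 and 15.1 CPM at ZT0 and 10.8, 8.41 and 9.58 at ZT8, a log2 change of -0.68 ± 0.21 (SE, adjusted p = 0.0276). The heavy chain of the same motor, Dync2h1, had a log2 change of -0.13 ± 0.18 (SE, adjusted p = 0.676). Copies of Dynlt1 that are near-identical (Dynlt1a, Dynlt1b, Dynlt1c and Dynlt1f) share reads, so that their separate values, from 1.33 to 3.45 CPM on average, are uncertain.

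Dctn2 (dynamitin) was the 1 dynactin gene of 6 that changed. Its level was 472, 424 and 402 CPM at ZT0, 412, 257 and 292 at ZT8 and 472, 471 and 388 at ZT16, and ZT8 replicate 1 overlapped with both other groups. The log2 change was -0.43 ± 0.13 (SE, adjusted p = 0.0295) to ZT8 and 0.47 ± 0.13 (SE, adjusted p = 0.0214) from there to ZT16, or -0.67 and 0.71 without ZT8 replicate 1. With ZT8 replicate 2 left out the changes were -0.31 and 0.34, and neither passed. Dctn1 was at 952, 863 and 827 CPM at ZT0 and 859, 726 and 778 at ZT8, a log2 change of -0.16 ± 0.10 (SE, adjusted p = 0.284). Dctn3, Dctn4, Dctn5 and Dctn6 had log2 changes between -0.16 and 0.24 in this comparison, none of which passed the test. Dctn2 (chr10:127266262-127281959 on GRCm38, plus strand) and Kif5a (chr10:127225695-127266348, minus strand) lie head to head and overlap by 87 bases, and the counting is not stated to use strand.

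Among the dynein regulators, Ndel1 was at 121, 125 and 113 CPM at ZT0, 96.9, 70.4 and 79.5 at ZT8 and 128, 134 and 90.3 at ZT16. Every ZT8 library lay below ZT0, and ZT8 replicate 1 lay above ZT16 replicate 3. The log2 change was -0.54 ± 0.14 (SE, adjusted p = 0.016) and 0.52 ± 0.14 (SE, adjusted p = 0.0207). Pafah1b1, the gene of LIS1, had means of 628 ± 23.1 CPM at ZT0 and 563 ± 42.0 CPM at ZT8 and a log2 change of -0.16 ± 0.09 (SE, adjusted p = 0.255). Nde1, at 3.43 CPM, had a log2 change of 0.08 ± 0.30 (SE, adjusted p = 0.891).

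Promoters are shown for Kif5c, Klc1 and Ndel1, the called members in which a search found the element of either CREB or the clock factors. Windows of 300 bases around transcription starts (RefSeq, GRCm38.p6) were found for 56 of the 74 members and for 8 of the 15 called. Searched after the values were known, the cyclic AMP response element TGACGTCA, bound by CREB, was in Kif5c and Klc1, in 3 members not called (Dctn3, Kif17 and Kif18a) and in 1.79% of 32851 windows. The E-box CACGTG, bound by clock factors such as CLOCK and BMAL1, was in Kif1a, Klc4 and Ndel1 and in 7.15% of windows. Both motifs read alike on either strand and they do not overlap each other. Below, each stretch runs 5′ to 3′ on the strand of its gene, with the motif in capitals. For Kif5c (chr2:49619036-49619285, plus strand) and Ndel1 (chr11:68853147-68853385, minus strand) it is the bases before the gene, 250 and 239 of them, and for Klc1 (chr12:111758824-111758853, plus strand) 30 bases around the motif.
Kif5c: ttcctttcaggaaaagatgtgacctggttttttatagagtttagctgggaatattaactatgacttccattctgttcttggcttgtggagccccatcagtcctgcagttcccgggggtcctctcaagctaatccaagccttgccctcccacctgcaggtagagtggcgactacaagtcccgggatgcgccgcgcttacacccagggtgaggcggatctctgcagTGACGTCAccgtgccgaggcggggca
Klc1: gcgagggcgggTGACGTCAcggcgcacagc
Ndel1: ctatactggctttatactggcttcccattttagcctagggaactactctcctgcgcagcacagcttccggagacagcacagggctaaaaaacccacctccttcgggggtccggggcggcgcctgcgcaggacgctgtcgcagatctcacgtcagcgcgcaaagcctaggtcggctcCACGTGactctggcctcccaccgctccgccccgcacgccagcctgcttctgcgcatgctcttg
Counted from the transcript start of its window, the last base of the motif lies 19 bases upstream in Kif5c, 26 in Klc1 and 69 in Ndel1. For Klc1 and Ndel1 this is an alternative start, 433 and 11 bases inside the gene interval in RefSeq, so that the Klc1 motif lies within that interval. A match describes these letters only.

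Of the kinesins outside kinesin-1, 3 genes changed. Kif21a, a kinesin-4 that slows microtubule growth, was at 367, 433 and 397 CPM at ZT0, 433, 656 and 477 at ZT8 and 393, 402 and 393 at ZT16, with ZT8 replicate 1 nearly level with ZT0 replicate 2. Its log2 change was 0.39 ± 0.12 (SE, adjusted p = 0.0313) and -0.40 ± 0.12 (SE, adjusted p = 0.0289), the call to ZT16 being lost with an oligodendrocyte marker score as a covariate (adjusted p = 0.071). Without ZT8 replicate 2 the changes were 0.18 and -0.19. Kif22, a chromosome-arm motor of mitosis, was at only 3.01, 3.71 and 5.77 CPM at ZT0 and 4.36, 9.82 and 10.8 at ZT8, groups that overlapped, with a log2 change of 0.99 ± 0.33 (SE, adjusted p = 0.0453), a call lost under library totals and 2 other settings. The summed level of 6 markers of dividing cells was 7.18 to 9.51 CPM at ZT0 and 12.0 to 16.9 CPM at ZT8. Most of that sum was Birc5 (7.13 CPM on average), the only 1 of the 3 markers tested that was called higher at ZT8. Ccnb1 had 2 counts over all immunoprecipitates. The part of dividing cells in the Kif22 value was not tested.

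Kif19a was at 4.22, 4.04 and 5.16 CPM at ZT8 and 1.88, 2.26 and 1.82 at ZT16, without overlap, a log2 change of -1.16 ± 0.29 (SE, adjusted p = 0.013). Its 845 counts over the 18 immunoprecipitates are the fewest of any member called. Ependymal cells bear motile cilia, and the summed level of 6 ependymal markers was 48.5 to 66.0 CPM at ZT8 and 50.8 to 70.4 CPM at ZT16. Most of that sum was Foxj1 (51.8 CPM on average), none of the 3 markers tested was called, and Ccdc153, Tmem212, Dnah11 and Mia were each below 1 CPM on average. The part of such cells in the Kif19a value was not tested.

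Kinesin-2, which moves material in cilia and axons, and kinesin-3 gave no call in either comparison, with 5 and 6 members tested. The kinesin-2 log2 changes from ZT0 to ZT8 lay between -0.60 (Kif17, at 2.91 CPM) and 0.12 (Kif3a). Kif3a was among the steadiest members, with 349, 334 and 352 CPM at ZT0 and 377, 379 and 370.1 at ZT8 and a coefficient of variation of 3.96% over the 18 libraries. Only Dctn5 varied less among the 41 members with a mean of at least 10 CPM (3.39%), whose median of 13.2% compares with 14.2% over all 8680 genes at that level. Kif1a was at 1171, 1076 and 1077 CPM at ZT0 and 1101, 939 and 1000.4 at ZT8, a log2 change of -0.13 ± 0.09 (SE, adjusted p = 0.361), and the mitochondrial carrier Kif1b had a log2 change of 0.21 ± 0.08 (SE, adjusted p = 0.065). The p of Kif1b missed the threshold, which does not show that its levels were alike.

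**Figure D4:**
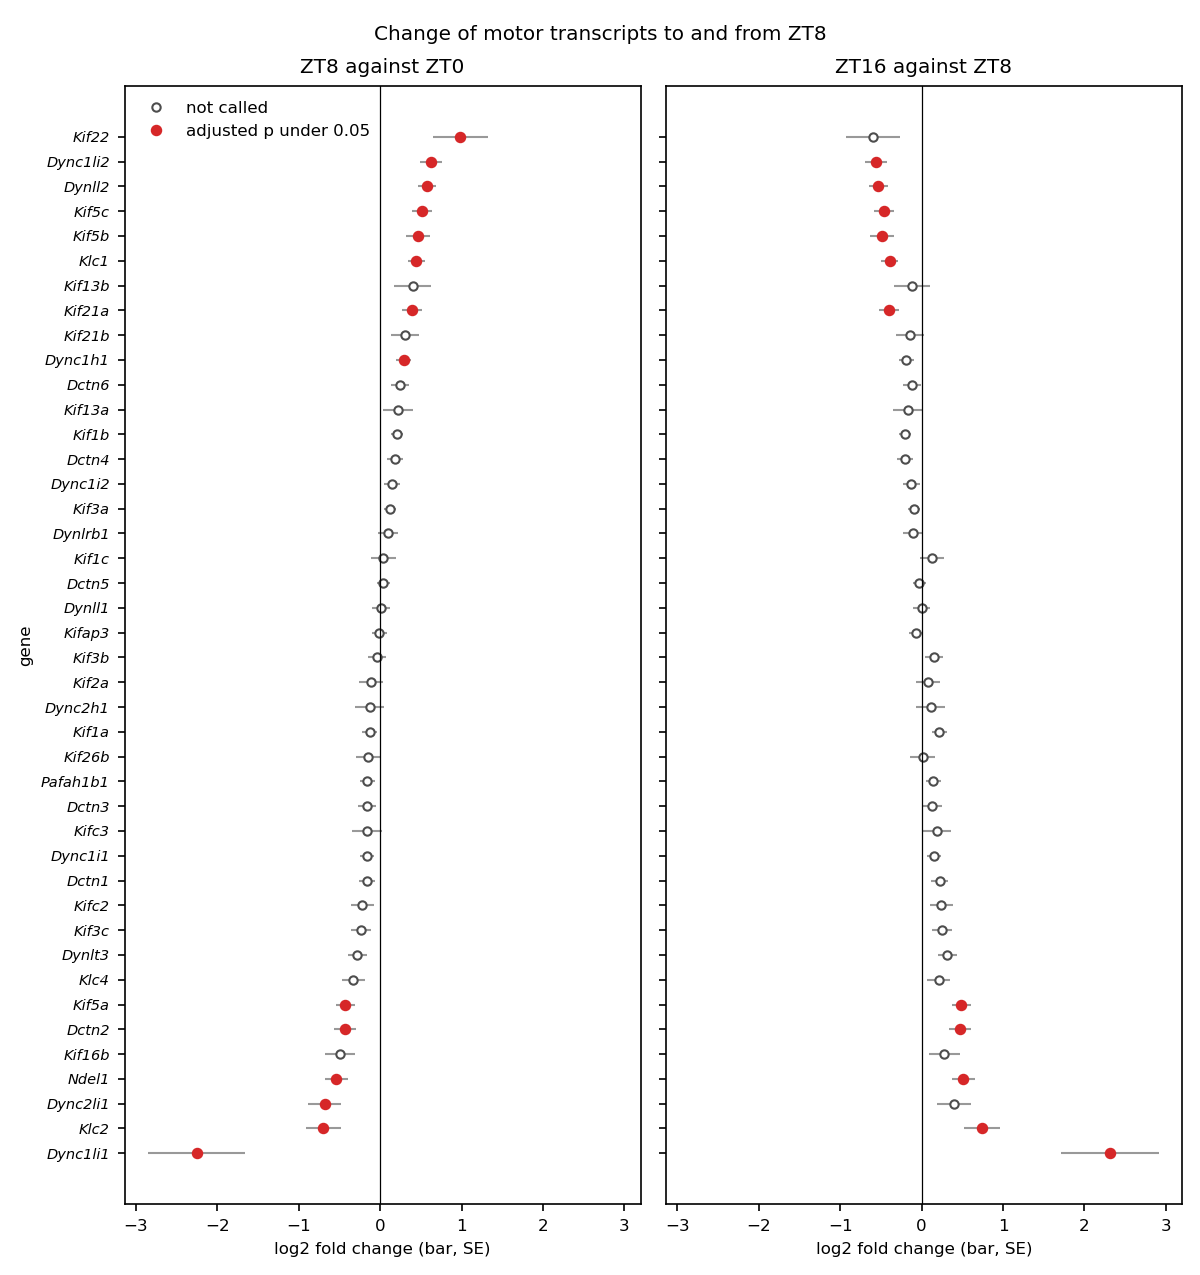
Log2 fold change with its SE for the 42 tested motor genes with a mean of at least 5 CPM, from ZT0 to ZT8 (left) and from ZT8 to ZT16 (right), in 1 order set by the left panel. Filled dots passed an adjusted p of 0.05, which 14 genes did on the left and 11 on the right, and Dync1li1 stands apart at -2.25 and 2.31.

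Motor genes whose groups did not overlap at all were 25 of 63 between ZT0 and ZT8 (against 34.7% of genes), 14 between ZT8 and ZT16 (against 27.2%) and 12 between ZT8 and ZT20 (against 20.9%). The last pair, 12 h apart, gave 0 calls among members in edgeR, as it did over all genes (0%). At an unadjusted p under 0.05 there were 17 members (and 22.3% of all genes), and DESeq2 called 5 (against 7.15% of genes). The lowest adjusted p was that of Dync1li2 at 0.0706, with a log2 change of -0.50 from ZT8 to ZT20. The corresponding values were 0.36 for Kif5a, -0.37 for Kif5c, -0.33 for Klc1, 0.53 for Klc2 and 1.89 for Dync1li1. Without ZT8 replicate 1, 16 members were called in this pair, against 14.4% of genes.

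Rhythmicity over the day was tested in 3 ways. Any difference among the 6 time points was found for 3 members (4.76%, against 6.74% of genes): Dynll2 (adjusted p = 0.0263), Dync1li2 (0.0312) and Klc1 (0.047). A 24-h cosine curve gave the same 3 genes (4.76%, against 6.24% of genes). Its amplitude was 0.22 on the log2 scale for Dynll2 with a peak at ZT 7.06, 0.25 for Dync1li2 with a peak at ZT 7.06, and 0.18 for Klc1 with a peak at ZT 7.79. Adjusted p-values of this fit were 0.0448, 0.049 and 0.0434, and the 3 calls became 1 with library totals (5.63% of genes) and 0 with an oligodendrocyte marker score as a covariate (0.0257%). The curves fitted to Kif5a, Klc2 and Dync1li1 peaked at ZT 18.4, 18.1 and 18.8 but did not pass (adjusted p = 0.0871, 0.0922 and 0.067). JTK_Cycle, a rank test against cosine curves, called 0 members after adjustment across genes (against 0.0385% of genes), with a lowest adjusted p of 0.0814 for Kif19a. Adjusted within each gene alone, it gave 14 of 63 members, against 15.8% of genes. Leaving out a library or a replicate number moved the cosine count by over 1.5 times in 19 of 21 cases. Without ZT8 replicate 2 the first and second tests called 0 members (0.357% and 0.0188% of genes). Without ZT16 replicate 3 the 3 tests called 12, 7 and 7 members (12.8%, 9.61% and 4.67% of genes), and without ZT20 replicate 3 they called 5, 12 and 0 (7.49%, 16.6% and 0.0435%).

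Genes that work with these motors were counted from lists set by function. Of 20 adaptors, which tie cargo to motors, 3 were higher at ZT8 than at ZT0 and 5 lower, where all genes gave 8.95% and 9.02%. Higher were Hap1 (log2 change, 0.52), which links kinesin-1 and dynactin to vesicles, Arl8b (0.37), which recruits kinesin to lysosomes, and Madd (0.28), an adaptor of kinesin-3. Lower were Trak1 (-1.06), which couples kinesin-1 to mitochondria, Clstn1 (-0.90), Mapk8ip1 (-0.45), Fez1 (-0.33) and Arl8a (-0.33). The products of Clstn1 and Mapk8ip1 bind kinesin light chains. Trak2, the relative of Trak1, had a log2 change of 0.14 that did not pass. From ZT8 to ZT16, 6 adaptors were higher and 2 lower, where all genes gave 9.11% and 7.8%.

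Of 6 dynactin subunits with other symbols, Actr1b (-0.37), a filament subunit, and Capzb (-0.31), a capping protein, were lower at ZT8 than at ZT0 and higher at ZT16 than at ZT8, on the log2 scale. Among 12 genes of proteins that bind or cut axonal microtubules, Mapt, which encodes tau, was higher at ZT8 (0.41), and Map1a (-0.39) and Map7d2 (-0.57), which helps recruit kinesin-1, were lower. From ZT8 to ZT16, 3 of these 12 were higher (Map1a, Map2 and Map7d2) and Mapt was lower. Over all genes 8.95% were higher and 9.02% lower at ZT8 than at ZT0, and 9.11% were higher and 7.8% lower at ZT16 than at ZT8. The median log2 change from ZT0 to ZT8 was -0.01 for adaptors, -0.26 for the dynactin subunits and -0.11 for the microtubule proteins.

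Markers of cholinergic neurons moved with these comparisons. At ZT8 Chat, Slc5a7, Slc18a3 and Ache, 4 of the 7 markers, were lower than at ZT0, and 5 of the 7 were higher at ZT16 than at ZT8. The median log2 change of the 7 was -0.64 from ZT0 to ZT8 (from -1.74 to 0.32) and 0.59 from ZT8 to ZT16. Their summed level was 4295 to 4768 CPM at ZT0, 4229.8 to 4685 at ZT8 and 4623 to 5027 at ZT16. Most of that sum was Prph (2954 CPM on average), which was not called, so the sum says little about the others. In precipitates from whole tissue, fewer cells of a type and less RNA per cell cannot be told apart, and the part of these markers in the motor values was not tested. The oligodendrocyte sum was 1827 to 2207 CPM at ZT0, 1744 to 2002 at ZT8 and 1932 to 2887 at ZT16, with 1 of 7 markers (Mbp) lower at ZT8 than at both. With a score of these markers as a covariate in the fit, 15 members were called from ZT0 to ZT8 (against 19.1% of genes), all 14 named above among them. From ZT8 to ZT16 there were 12 (against 17.7% of genes), of which 11 are named above, Kif21a being lost.

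Length and base composition were compared with the changes as a description. Across the 63 members, Pearson's r between the log2 change from ZT0 to ZT8 and log transcript length was -0.07, and that with GC content -0.02, against -0.14 and -0.03 across 14735 genes. GC content of the 8 members higher at ZT8 ran from 41.1% to 56.0% (median, 50.6%), and that of the 6 lower ones from 46.6% to 60.4% (median, 51.9%). Genes are not independent replicates, and all points share the same 6 libraries.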

How the data were processed

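Ribosome-bound mRNA was profiled in 18 immunoprecipitates (6 time points, 3 animals each) and 1 pooled input. Per the methods, homogenates were made from 1 spinal cord each, all samples were handled on the same day, and stranded paired-end libraries were aligned by the authors to mm10 (STAR 2.7.5). RSEM then gave the authors' deposited expected counts, which are not normalized. Reads that fit several genes are divided between them by a model, and 1.9% to 3.68% of values per library had decimals. Ensembl release 98 is named, though the symbols fit RefSeq better, so coordinates came from RefSeq (GRCm38.p6), and transcript lengths and strands from GENCODE of the same build.

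Expected counts were rounded. Genes passing filterByExpr (15572) were fitted over all 18 immunoprecipitates by quasi-likelihood in edgeR 4.0.16 (R 4.3.3, TMM), with Benjamini-Hochberg adjustment at 0.05. Pairs of time points, any time point and a 24-h cosinor were tested. JTK_Cycle used log2 CPM (prior count 2) and periods of 20, 24 and 28 h. SEs came from the F statistic. The input was compared without a test (at least 10 counts over 19 libraries, 2-fold, all 18 on 1 side, exact 95% Poisson interval). Scripts were tested on simulated data. Alternatives were DESeq2 1.42.0 (test and size factors), library totals, upper-quartile scaling, 2 count filters, a replicate block, an oligodendrocyte score, a length and GC offset, fits of 6 libraries and left-out libraries. Precision is limited by 3 animals per time point.

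Named in full were called members of the axonal motor families, 12 well known motors, and the 5 members at either end of the input ratios. Others, such as Kif22 and Kif1b, were named after their values were seen. Members, lists and the pairs ZT0 with ZT8 and ZT8 with ZT16 were chosen with earlier results of these data known.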

Additional observations from a re-analysis of the deposited data

How the results depend on the processing

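No called log2 change reversed under any alternative. Of the counts from ZT0 to ZT8 and from ZT8 to ZT16, those under other scalings, count filters, DESeq2, the oligodendrocyte score and the length and GC offset stayed between 11 and 18 (14 in the report) and between 11 and 17 (12 in the report). Over all genes these settings gave 12.1% to 21.5% and 11.7% to 20.3%. Fitting only the 6 libraries of a pair left 8 and 0 members (13.8% and 0.00694% of all genes), with fewer samples to estimate the spread. From ZT8 to ZT20, 0 members became 10 with a filter of at least 1 count (6.41% of all genes), 3 with the length and GC offset (4.6%) and 5 with DESeq2 (7.15%). Members differing at any time point (3) became 8 and 13 with filters of at least 10 and 1 counts (6.64% and 10.8%), 6 with the length and GC offset (11%) and 11 with DESeq2 (16.1%). Cosinor members (3) became 1 with library totals (5.63%), 10 with at least 1 count (9.18%), 0 with the oligodendrocyte score (0.0257%), 9 with the length and GC offset (11.1%) and 11 with DESeq2 (14.4%). JTK_Cycle members (0) became 1 with the oligodendrocyte score (4.35%), 1 with the length and GC offset (0.0706%) and 14 when adjusted within the gene alone (15.8%). Members enriched over the input (14) became 7 with library totals, which shifted the median log2 ratio of all genes by -0.32. These 7 are given without the share over all genes under that scaling. With the length and GC offset the Klc1 changes were 0.67 and -0.62, over 1.5 times those reported. The cause of these changes was not tested.

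Leaving out single libraries or replicate numbers gave 0 to 18 members from ZT0 to ZT8, 0 to 20 from ZT8 to ZT16, 0 to 16 from ZT8 to ZT20, 0 to 14 for any time point, 0 to 12 for the cosinor, 0 to 7 for JTK_Cycle, 13 to 14 enriched and 14 to 17 depleted. The highest counts of the 6 tests of time stood beside 24.9%, 24.1%, 14.4%, 15.2%, 16.6% and 4.67% of all genes. Without replicate number 2 no pair gave a call, among members or over all genes (0%). Without number 3 there were 0 from ZT0 to ZT8 (0% of genes) and 9 from ZT8 to ZT16 (14.4%). Deviations of same-numbered libraries correlated at -0.52 to 0.59 (median, 0.07), with 18 of 45 over 0.1. Those of differently numbered libraries correlated at -0.55 to 0.53 (median, -0.01), with 32 of 90 over 0.1. Such weak correlations cannot settle whether the replicate numbers pair libraries. With a replicate block the pairs gave 15, 12 and 0 members (17.7%, 16.6% and 0.045% of genes), the cosinor 1 (4.97% of genes) and JTK_Cycle 2 (2.29%).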
